A study of Mus musculus with 11 samples.

Results

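Foxi3, Fam20a, Col6a3, Fli1, Tmem215, Ankrd34b, Exph5 and Dcdc5 are 8 genes with almost no reads in control cells of the neonatal subventricular zone and clear read counts in cells labelled as Zeb2 mutants. They are 8 of 39179 genes in the count table. They were picked by their own levels in these libraries, a mean of at least 4 CPM (counts scaled to library totals of 1000000) in the mutants and of at most about 2 CPM in the controls. Their difference between the groups is therefore a description here, and no test of it is given. Foxi3 had 86 to 289 counts in each of the 5 mutant libraries and 0 counts in each of the 6 control libraries. Fam20a averaged 56.8 ± 7.37 CPM (SD, n = 5) in the mutants and 1.85 ± 0.842 CPM (SD, n = 6) in the controls. Over the 7 genes with any control reads, the mean in the mutants was 16.7 to 34.6 times the mean in the controls.

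RNA was sequenced from GFP-positive cells sorted out of the dissected ventricular-subventricular zone, the germinal layer that lines the lateral ventricles, of CD1/Swiss mice at postnatal day 2. The 5 mutant libraries have the genotype Gsh2-Cre; Zeb2 fl/ko with the RCE reporter, that is 1 floxed and 1 null Zeb2 allele. The 6 control libraries are Gsh2-Cre; Zeb2 fl/wt with the same reporter, so the Cre driver, the reporter and 1 floxed allele are shared by both groups, and the controls are expected to keep 1 working allele in the sorted cells. RCE is a Cre-dependent GFP reporter, and Gsh2-Cre is active in progenitors of the ventral telencephalon, so GFP marks their descendants, whereas the null allele is present in every cell of the mutant animals. The labels do not say whether each library is 1 animal. Libraries held 9180749 to 13073505 counts in the mutants and 6833981 to 12050518 in the controls.

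Zeb2 encodes a transcription factor with a cluster of zinc fingers at each end and a homeodomain-like part between them. It is known mainly as a repressor that binds paired CACCT sequences, often within the E-box CACCTG, and in the ventral forebrain it is known to act in the choice between interneuron fates. The gene-level count of Zeb2 itself was 302 ± 71.5 CPM (SD, n = 5) in the mutants and 239 ± 48.9 CPM (SD, n = 6) in the controls, and this difference did not pass the test (log2 fold change 0.35, SE 0.165, edgeR adjusted p = 0.294). A gene-level count includes exons outside a deleted part, and exons of Zeb2os lie on the opposite strand, so it does not check the genotype, and all directions below rest on the labels. Markers of the labelled lineage were high in both groups: the summed level of Gsx2, Dlx1, Dlx2, Dlx5, Dlx6, Gad1 and Gad2 was 2434 to 3053 CPM in the mutants and 2071 to 3157 CPM in the controls. Of these Gad2 passed the test, upward, and the young neuron markers Dcx, Tubb3, Stmn2 and Map2, none of which passed, summed to 5814 to 6976 CPM in the mutants and 6056 to 7304 CPM in the controls. The groups also differ in sex. All 5 mutant libraries and 2 controls, 4 and 5, had 0 counts of 4 Y-linked genes, and the other 4 controls had 763 to 2716.

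The promoters of 7 of the 8 genes were listed by RefSeq on GRCm38.p6, with 8 start sites in all because Tmem215 has 2. The letters CACCT, read on both strands and so also as AGGTG, were searched in the 250 bases before each start. They were present before 6 of the 8 start sites, against 46.0% of 32851 start sites of all genes. The longer CACCTG, which contains CACCT, was present before the starts of 3 of the genes, Fam20a, Ankrd34b and Dcdc5, against 17.2% of all start sites. The Fam20a promoter held 3 copies of CACCT, at 174, 110 and 87 bases before the start, and 13.8% of all start sites have at least 2. The promoters of 3 genes are shown here, Fam20a because it holds the most copies, Dcdc5 because its single copy is a CACCTG, and Foxi3, the gene with no control reads, because it holds none. They are written 5′ to 3′ from the most distant base up to the first annotated exon, with CACCT or its reverse complement AGGTG in capitals. That exon begins within the 250 bases searched, so 209 of them are printed for Fam20a, 115 for Dcdc5 and 175 for Foxi3. The distances given count from the RefSeq start, which lies beyond the last printed base in each of these genes.
Fam20a, chr11:109722280-109722488, minus strand: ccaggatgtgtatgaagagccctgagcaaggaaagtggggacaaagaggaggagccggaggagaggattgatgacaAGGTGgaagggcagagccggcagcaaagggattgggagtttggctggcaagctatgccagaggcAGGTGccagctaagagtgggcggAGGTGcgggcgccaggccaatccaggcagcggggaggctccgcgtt
Dcdc5, chr2:106080749-106080863, plus strand: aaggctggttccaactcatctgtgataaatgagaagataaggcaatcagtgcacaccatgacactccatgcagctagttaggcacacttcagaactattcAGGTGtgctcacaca
Foxi3, chr6:70956356-70956530, plus strand: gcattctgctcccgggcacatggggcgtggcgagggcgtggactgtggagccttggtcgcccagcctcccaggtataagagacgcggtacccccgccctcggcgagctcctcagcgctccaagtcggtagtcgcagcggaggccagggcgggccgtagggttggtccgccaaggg

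These matches are letters in a short window and not measured binding, and the window of Foxi3 without a match says nothing about sites elsewhere. The single copies before Col6a3, Tmem215, Ankrd34b, Exph5 and Dcdc5 lay 217, 202, 37, 131 and 150 bases before the start. RefSeq's Dcdc5 start lies inside the longer gene model that GENCODE M21 gives for the same gene.

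The transcription factors come first. Foxi3 (ENSMUSG00000055874, GRCm38 chromosome 6, 70956531 to 70961066, plus strand) encodes a forkhead factor of ectodermal placodes, which is needed in the mouse for the inner ear and the branchial arches, and which is mutated in hairless dog breeds. It had 289, 86, 110, 95 and 160 counts in mutant libraries 1 to 5, against 0 counts in all 6 control libraries. This was 12.6 ± 6.08 CPM (SD, n = 5) in the mutants, and mutant 1, at 22.7 CPM, stood above the other 4, which lay between 7.27 and 12.6 CPM. With a floor of 3 counts per library, which is 0.249 to 0.439 CPM in the controls and covers counting error only, Foxi3 was at least 39.5-fold higher in the mutants. Of all genes counted, 2228 had reads in the mutants and none in the controls, and the highest of them after Foxi3 averaged 2.93 CPM.

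Fli1 (ENSMUSG00000016087, chromosome 9, 32422204 to 32542861, minus strand) encodes an ETS factor of blood and endothelial cells, best known for megakaryocyte development and for its fusion with EWSR1 in Ewing sarcoma. Its counts in mutant libraries 1 to 5 were 214, 104, 213, 289 and 223, against 0, 2, 17, 15, 6 and 0 in control libraries 1 to 6. The lowest mutant library, mutant 2 at 10.2 CPM, was 5.98 times the highest control library, control 3 at 1.7 CPM. Fli1 averaged 18 ± 5.16 CPM (SD, n = 5) in the mutants and 0.684 ± 0.775 CPM (SD, n = 6) in the controls. RNA was measured in bulk, so more cells with a transcript and more transcript per cell cannot be told apart, for this gene and the others.

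Next are the genes of secreted or matrix proteins. Fam20a (ENSMUSG00000020614, chromosome 11, 109669749 to 109722279, minus strand) encodes a pseudokinase of the secretory pathway that binds and activates the kinase Fam20c. It is known for enamel formation, and loss of the human gene causes amelogenesis imperfecta with kidney calcification. Counts were 592, 638, 530, 689 and 821 in mutant libraries 1 to 5, against 13, 6, 20, 30, 14 and 22 in control libraries 1 to 6. Fam20a was the only one of the 8 with reads in every control library, and also the most even among the mutants, where its highest library was 1.39 times its lowest. Its mean was 30.7 times the control mean. The 3′ end of Fam20a lies 0.093 kb from Prkar1a, a protein kinase A subunit gene at 815 ± 78.8 CPM (SD, n = 5) in the mutants and 753 ± 44.5 CPM (SD, n = 6) in the controls, a difference that did not pass the test (log2 fold change 0.13, edgeR adjusted p = 0.454).

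Col6a3 (ENSMUSG00000048126, chromosome 1, 90765923 to 90843971, minus strand) encodes the alpha-3 chain of collagen VI, a microfibril of muscle and connective tissue, and mutations in the human gene cause Bethlem and Ullrich muscular dystrophies. Its counts were 156, 190, 125, 121 and 116 in mutant libraries 1 to 5, against 7, 0, 2, 3, 11 and 1 in control libraries 1 to 6. The mutants lay between 9.13 and 18.6 CPM, with mutant 2 highest, and no control exceeded 1.24 CPM. Col6a3 averaged 12.6 ± 3.89 CPM (SD, n = 5) in the mutants and 0.478 ± 0.523 CPM (SD, n = 6) in the controls.

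The remaining genes encode intracellular or membrane proteins, and 3 of them had the fewest reads of the 8. Exph5 (ENSMUSG00000034584, chromosome 9, 53301670 to 53377514, plus strand) encodes exophilin-5, an effector of the vesicle GTPase Rab27, whose loss in humans causes a form of skin fragility. Its counts were 110, 56, 19, 71 and 59 in mutant libraries 1 to 5, against 1, 0, 8, 9, 0 and 0 in control libraries 1 to 6. Mutant 3 was the lowest library at 2.07 CPM, which is still 2.22 times the highest control, control 4 at 0.934 CPM.

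Tmem215 (ENSMUSG00000046593, chromosome 4, 40472180 to 40477168, plus strand), which encodes a transmembrane protein, had 59, 27, 104, 80 and 30 counts in mutant libraries 1 to 5, against 0, 0, 6, 0, 3 and 0 in control libraries 1 to 6. Its coefficient of variation among the mutants was the highest of the 8, and its level ran from 2.36 CPM in mutant 5 to 11.3 CPM in mutant 3 (5.42 ± 3.64 CPM, SD, n = 5). The 4 control libraries without a read allow up to 3 counts each. Ankrd34b (ENSMUSG00000045034, chromosome 13, 92425896 to 92441658, plus strand), which encodes an ankyrin repeat protein, had 30, 14, 38, 69 and 87 counts in mutant libraries 1 to 5, against 0, 1, 3, 0, 6 and 0 in control libraries 1 to 6. Mutant 2, at 1.37 CPM, came nearest to the controls, at 2.02 times the highest of them.

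Dcdc5 (ENSMUSG00000074981, chromosome 2, 106003336 to 106406151, plus strand) belongs to the doublecortin family of microtubule-binding proteins. GENCODE M21 annotates the mouse gene as a transcribed unitary pseudogene, whereas RefSeq lists it as protein-coding. Its counts were 105, 105, 55, 100 and 67 in mutant libraries 1 to 5, against 1, 0, 3, 11, 1 and 3 in control libraries 1 to 6. Control 4 held 11 of the 19 control counts, and the lowest mutant was 4.62 times control 4. Of its 9014 exon bases, 84 overlap exons of Dnajc24 on the opposite strand. Dnajc24, a co-chaperone gene, stood at 18 ± 2.68 CPM (SD, n = 5) in the mutants and 19.2 ± 3.74 CPM (SD, n = 6) in the controls and did not pass the test (log2 fold change -0.08, edgeR adjusted p = 0.89).

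**Figure D1:**
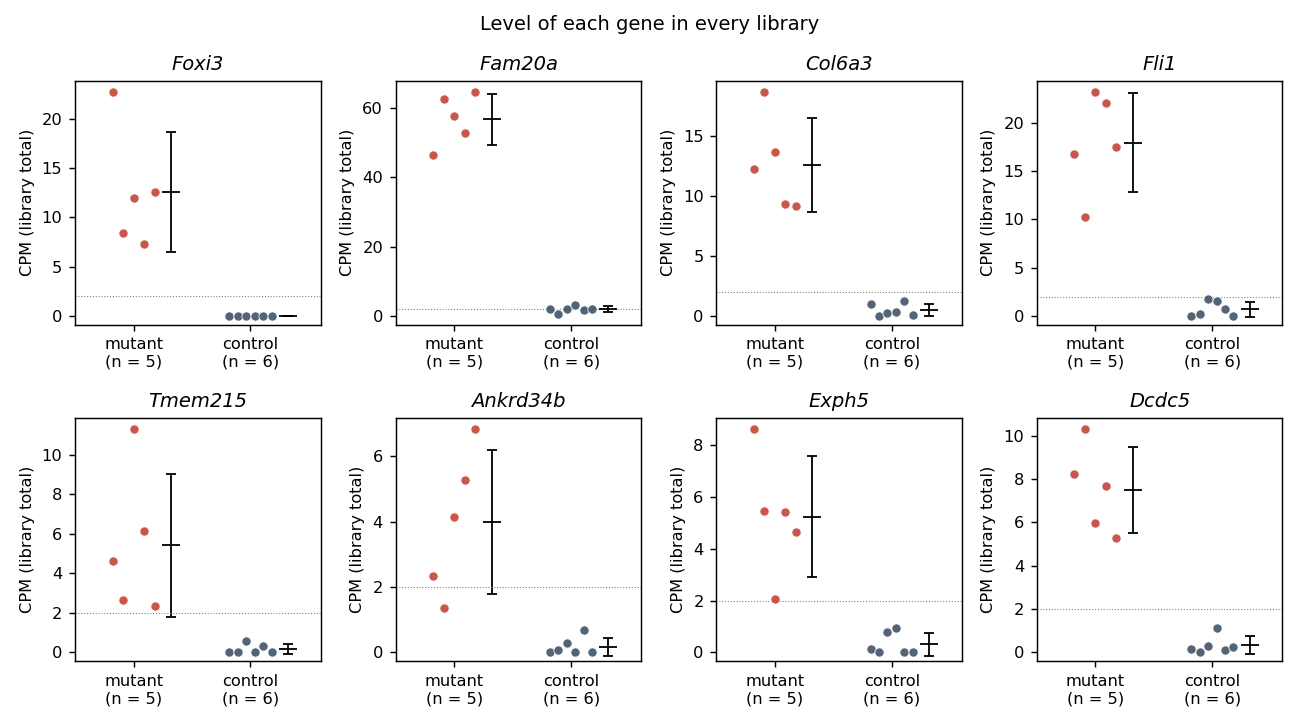
Level of each of the 8 genes in every library, in CPM of the library total, with the 5 mutant libraries left of the 6 controls. Points run from replicate 1 to the last within a group, the bar is the mean ± SD, and the dotted line marks 2 CPM. All mutant points lie above all control points in each panel, and Fam20a controls reach 3.11 CPM.

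For all 8 genes the lowest mutant library lay above the highest control library, as the choice of the genes makes likely. Over the genes kept for testing, 2.67% were separated in this way, and over the 12149 genes with at most 2 CPM on average in the controls and at least 1 count anywhere, 0.642% were. Of the 48 pairs of a gene and a control library, 20 had 0 counts and the highest count was 30. Of the 40 pairs of a gene and a mutant library, the lowest count was 14. The median of the fitted log2 fold changes was 4.75, with Foxi3 also at its lower bound, against -0.02 over all 14104 genes kept for testing. All 8 genes passed the filter on low counts. All but Fam20a passed it through the mutant libraries, since their control counts were too low, whereas the control counts of Fam20a alone would have sufficed.

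The level rule takes in more than these genes. Of all genes counted, 66 averaged at least 4 CPM in the mutants and at most 2 CPM in the controls, and 47 genes showed the opposite pattern, 4 of them Y-linked. Of the 8, 7 were among the 66, and Ankrd34b, at 3.997 CPM in the mutants, was just below the limit. The gene nearest to the limit from above was Tmem196, at 4.01 ± 0.436 CPM (SD, n = 5) in the mutants and 1.53 ± 0.825 CPM (SD, n = 6) in the controls, and from below, besides Ankrd34b, Gm14652, at 3.995 ± 0.793 and 1.98 ± 0.679 CPM. The other 59 had a median ratio of mutant to control mean of 4.14, and 25 of them were fully separated. Only Ttr among them had a ratio above the 16.7 of Exph5, and its 38.8 ± 86.3 CPM (SD, n = 5) in the mutants shows that its level varied by more than its mean.

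**Figure D2:**
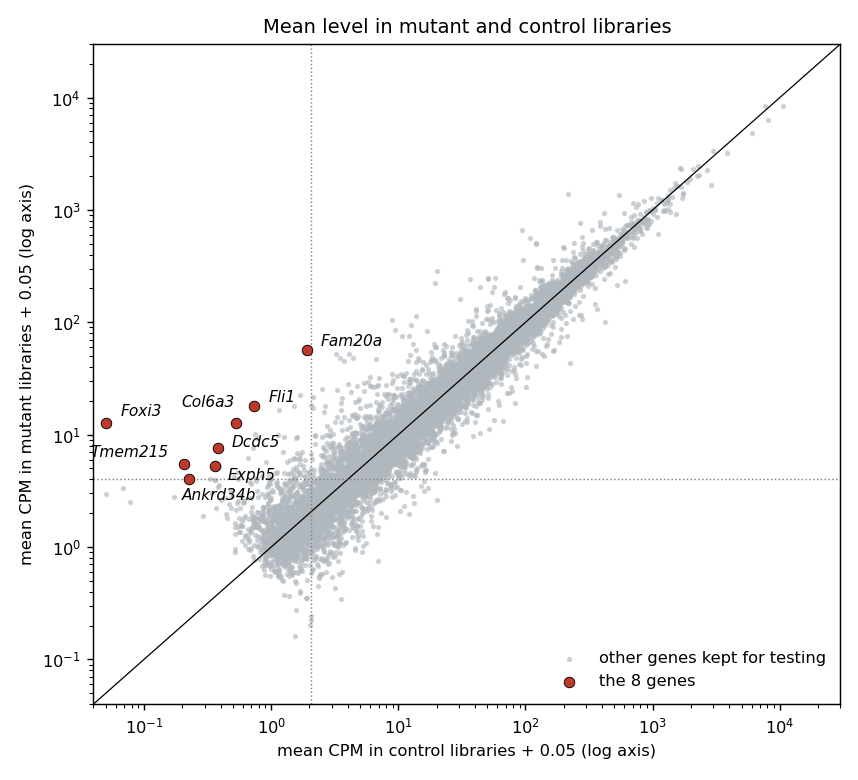
Mean CPM in the 5 mutant libraries against mean CPM in the 6 control libraries for the genes kept for testing, both on log axes after adding 0.05 CPM. Dotted lines mark 4 CPM for the mutants and 2 CPM for the controls, and the diagonal marks equal levels. The 8 genes, in red, lie to the left of 2 CPM, with Foxi3 at 0 in the controls and Fam20a highest in the mutants.

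Scaled by exon length, Fam20a, Foxi3 and Fli1 lay above the others in the mutants. The length counts the bases of all annotated exons of a gene, such as 1281 for Foxi3 and 9014 for Dcdc5. The order therefore depends on the annotation. Fam20a stood at 15.6 CPM per kb of exon (12.8 to 17.8 over the 5 mutants) and Foxi3 at 9.83 (5.67 to 17.7). Fli1 followed at 5.15 (2.92 to 6.66), near the median of 5.87 over the tested genes. Each of these overlapped its neighbour in the order over part of its range. Tmem215, Col6a3, Ankrd34b, Dcdc5 and Exph5 stood at 1.14, 1.05, 0.842, 0.831 and 0.499 CPM per kb, their ranges overlapped, and none reached the lowest Fli1 library, since the highest was 2.39 in Tmem215. In the controls Fam20a stood at 0.509 CPM per kb, the other 6 with control reads at 0.0298 to 0.196, and Foxi3 at 0.

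No single mutant library carried the genes. The summed level of the 8 was 122, 119, 130, 116 and 123 CPM in mutant libraries 1 to 5, against 3.22, 0.747, 5.91, 7.05, 4.63 and 2.36 CPM in control libraries 1 to 6. Fam20a, the most even gene, made up a large part of the mutant sums. Without it they were 75.6, 57.0, 72.3, 63.1 and 58.4 CPM, against 0.249 to 3.94 CPM in the controls. Mutants 1, 2, 3 and 5 each held the highest level of 2 genes, and mutant 4 of none. Foxi3 and Exph5 were highest in mutant 1, Col6a3 and Dcdc5 in mutant 2, Fli1 and Tmem215 in mutant 3, and Fam20a and Ankrd34b in mutant 5. Mutant 5 was also the lowest library for Col6a3, Tmem215 and Dcdc5, so the genes differed in their order over the mutants. The coefficient of variation among mutants ran from 13% for Fam20a to 67.3% for Tmem215, with 26.3% for Dcdc5, 28.7% for Fli1, 30.9% for Col6a3, 44.7% for Exph5, 48.3% for Foxi3 and 55.0% for Ankrd34b.

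The few control reads were not spread evenly either. Controls 3, 4 and 5 held reads of 7, 5 and 6 of the 8 genes, and controls 1, 2 and 6 of 4, 3 and 3. Controls 4 and 5 are the female ones. For all 7 genes with control reads the mean of these 2 was above the mean of the 4 male controls. The means were 2.35 and 1.6 CPM for Fam20a, 1.12 and 0.467 CPM for Fli1, and 0.169 and 0.15 CPM for Tmem215. Those of Tmem215 rest on 3 and 6 counts. Control 3, a male library, held the highest control level of Fli1, at 1.7 CPM, and of Tmem215, at 0.601 CPM. A part of sex in these few reads was not tested. Set against the 2 female controls alone, the mutant means were 11.2 to 32 times higher, and Foxi3 was at 0 in both. The fitted fold changes of all 8 were positive among the female libraries alone, as the full separation of the groups makes all but certain.

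**Figure D3:**
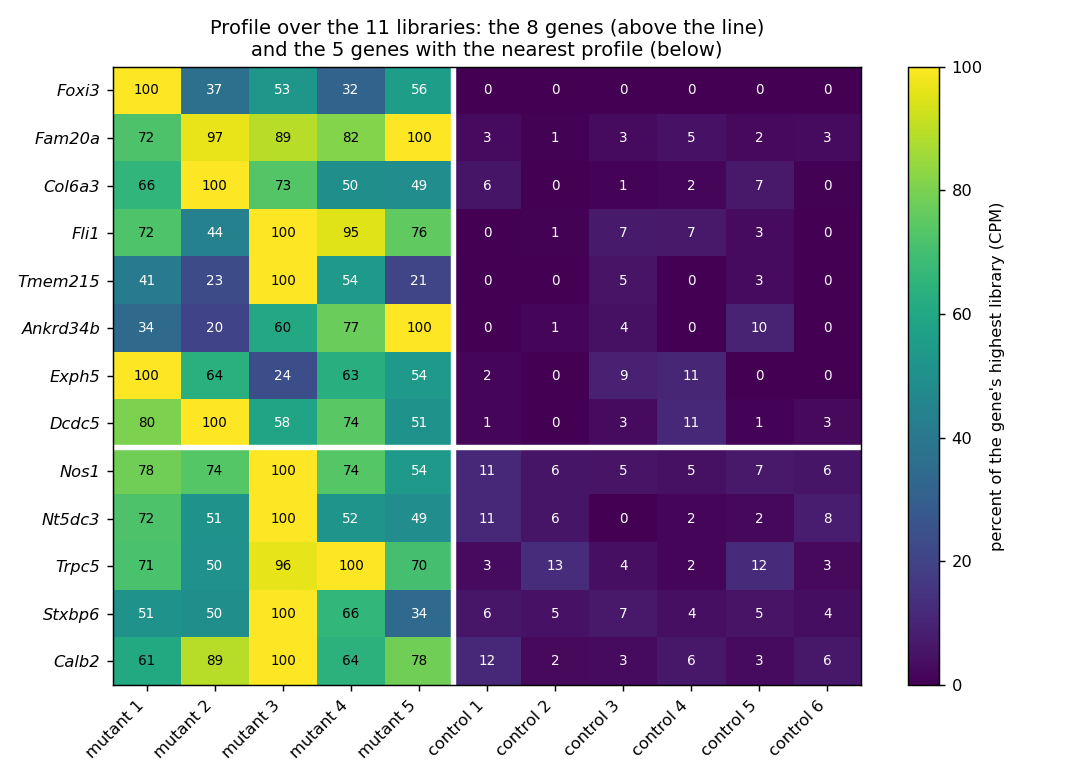
Each gene's CPM in every library as a percent of its own highest library, with mutant libraries on the left and controls on the right. The 8 genes are above the white line and the 5 genes with the nearest profile below it. Mutant cells run from 20 to 100 percent and the highest control cell is 12.7 percent, in Trpc5.

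Other genes shared the profile of the 8. Likeness was measured as the mean absolute difference over the 11 libraries between a gene's profile, in percent of its own highest library, and the mean profile of the 8, among 11593 other genes with at least 4 CPM on average in the mutants. The nearest was Nos1, the neuronal nitric oxide synthase gene of a class of interneurons, which differed by 8.41 percentage points. Nt5dc3, Trpc5, Stxbp6 and Calb2 followed at 9.1, 9.64, 9.68 and 9.71 points. Single members differed from their own mean profile by 8.36 points (Col6a3) to 14.5 points (Tmem215). Nos1 stood at 224 ± 48.3 CPM (SD, n = 5) in the mutants and 19.4 ± 7.17 CPM (SD, n = 6) in the controls, and Calb2, the calretinin gene, at 289 ± 61.1 and 20.2 ± 12.7 CPM. Unlike the 8 genes, 4 of these 5, all but Nt5dc3, were above 2 CPM on average in the controls. Closeness in this measure mainly reflects the contrast between the groups, by which the 8 were chosen.

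Whether relatives and partners of the 8 genes changed too was asked with lists drawn up by family, partner and pathway. Of 94 listed genes 93 were in the table and 47 were tested, and 1 was higher and 1 lower in the mutants at an adjusted p of 0.05, against 2.68% higher and 1.74% lower over all genes tested (4.42% in either direction). Both calls held in every alternative fit, but the count was 4 without mutant 2 or without mutant 5. DESeq2, which gave an adjusted p to 65 of the listed genes and to 16920 genes in all, and which called 7.09% of those 16920, called 8, with Eya1, Dcn, Sytl5 and Rph3a higher and Col6a1, Cspg4, Ets1 and Dclk3 lower in the mutants.

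Foxi3 stood without its closest relatives. Foxi1 and Foxi2 had 0 counts in all 11 libraries, as did Dlx3 and Pax8, and Six4, Tfap2a and Pax2, genes of placodes, had at most 3 counts in either group. Of 15 listed genes 6 were tested and none passed (median log2 fold change 0.26, against -0.02 over all genes). Edar, the ectodysplasin receptor gene, stood at 56.8 ± 11.4 CPM (SD, n = 5) in the mutants and 36.5 ± 12.5 CPM (SD, n = 6) in the controls (edgeR adjusted p = 0.151). Eya1, a transcriptional coactivator gene of placodes, stood at 28.3 ± 13.8 and 14.3 ± 5.17 CPM (edgeR adjusted p = 0.105), and passed with DESeq2 and without mutant 2 (adjusted p = 0.0411 and 0.0471). Over all its alternatives the adjusted p of Eya1 ran up to 0.45, with a Y-linked covariate.

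None of 14 tested ETS factor genes other than Fli1 passed (25 listed, median log2 fold change -0.29). Elf2 and Elk1, the highest of them, stood at 107 ± 15.2 and 76.7 ± 10.8 CPM (SD, n = 5) in the mutants, against 103 ± 15.0 and 88.5 ± 12.8 CPM (SD, n = 6) in the controls (edgeR adjusted p = 0.849 and 0.52), and exons of Elk1 overlap Uxt on the same strand. Erg, a close relative of Fli1 and an endothelial gene, had 0 counts in all 11 libraries. Ets1, the next gene to Fli1 on chromosome 9 at a distance of 93.4 kb, stood at 5.17 ± 4.38 CPM (SD, n = 5) in the mutants and 14.9 ± 5.44 CPM (SD, n = 6) in the controls, below threshold in edgeR (adjusted p = 0.135).

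Of the Fam20a list, 5 of 14 genes were tested and none passed (median log2 fold change -0.28). Fam20c, the secretory kinase gene whose product Fam20a activates, was already present in the controls, at 139 ± 23.8 CPM (SD, n = 5) in the mutants and 110 ± 12.5 CPM (SD, n = 6) in the controls (log2 fold change 0.35, edgeR adjusted p = 0.164). Pomk, a kinase gene of the secretory pathway, stood at 49.6 ± 13.3 and 61.1 ± 16.8 CPM (edgeR adjusted p = 0.58), and its sign turned among female libraries and with a Y-linked covariate. The enamel matrix genes Ambn and Amtn had 0 counts everywhere, Amelx had 0 in the mutants and 4 in the controls, and Enam had 3 and 0.

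Collagen VI joins the alpha-1 and alpha-2 chains with one of several others, such as alpha-3, and the genes of those partner chains were not higher in the mutants. Col6a1 stood at 2.25 ± 1.44 CPM (SD, n = 5) in the mutants and 11 ± 6.97 CPM (SD, n = 6) in the controls (log2 fold change -2.25, SE 0.635, edgeR adjusted p = 0.0595), and Col6a2 at 0.551 ± 1.23 and 1.11 ± 0.579 CPM (edgeR adjusted p = 0.755). Both were named after their values were seen. None of the 9 tested of 13 listed genes passed (median log2 fold change -0.11). Cspg4, a collagen VI receptor gene of oligodendrocyte precursors and pericytes, stood at 26.4 ± 9.76 and 77.2 ± 58.9 CPM (edgeR adjusted p = 0.0587), and passed with DESeq2 (adjusted p = 0.0372) and in edgeR without control 5 or mutant 5 (adjusted p = 0.0239 and 0.0397). Its log2 fold change of -1.53 was -1.01 with a replicate block (edgeR adjusted p = 0.184), -0.48 with a Y-linked covariate (0.8) and -0.31 among female libraries (0.786). Itgb1, an integrin gene, stood at 151 ± 25.6 and 155 ± 8.28 CPM (edgeR adjusted p = 0.944). Dcn, which encodes the collagen-binding proteoglycan decorin, had 84 counts over the mutants and 0 over the controls and was below the count filter of edgeR, and it was named after its values were seen.

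Among 15 genes of Rab27 and its effectors, the group of Exph5, 8 were tested and 1 passed (median log2 fold change 0.67). Rph3a, the rabphilin gene of synaptic vesicles, rose to 133 ± 10.5 CPM (SD, n = 5) in the mutants, against 83.7 ± 15.2 CPM (SD, n = 6) in the controls (log2 fold change 0.68, SE 0.132, edgeR adjusted p = 0.00662). All mutants, at 116 to 142 CPM, lay above all controls, at 62.0 to 98.3 CPM. Rab27a and Rab27b, the GTPases that exophilin-5 can bind, stood at 3.29 ± 1.74 and 4.08 ± 2.13 CPM (SD, n = 5) in the mutants, against 1.11 ± 1.02 and 4.34 ± 2.49 CPM (SD, n = 6) in the controls, without passing (edgeR adjusted p = 0.339 and 0.973).

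In the doublecortin family 4 of 10 listed genes were tested and 1 passed, downward (median log2 fold change 0.1). Dclk3, a doublecortin-like kinase gene, fell to 13.1 ± 4.53 CPM (SD, n = 5) in the mutants, against 66.8 ± 34.2 CPM (SD, n = 6) in the controls (log2 fold change -2.32, SE 0.379, edgeR adjusted p = 0.00197). Dcx itself, the gene of migrating young neurons that names the family, stood at 1194 ± 259 and 849 ± 190 CPM (log2 fold change 0.51, edgeR adjusted p = 0.0892). Dcx and the 2 Rab27 genes were named after their values were seen. Ankrd34a, a paralogue of Ankrd34b, stood at 10.8 ± 1.13 and 11.6 ± 7.2 CPM (edgeR adjusted p = 0.929), with control 2 at 25.9 CPM, and its sign turned without control 2. Ankrd34c, the other paralogue, had 23 counts over the mutants and 0 over the controls, and was below the count filter of edgeR.

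**Figure D4:**
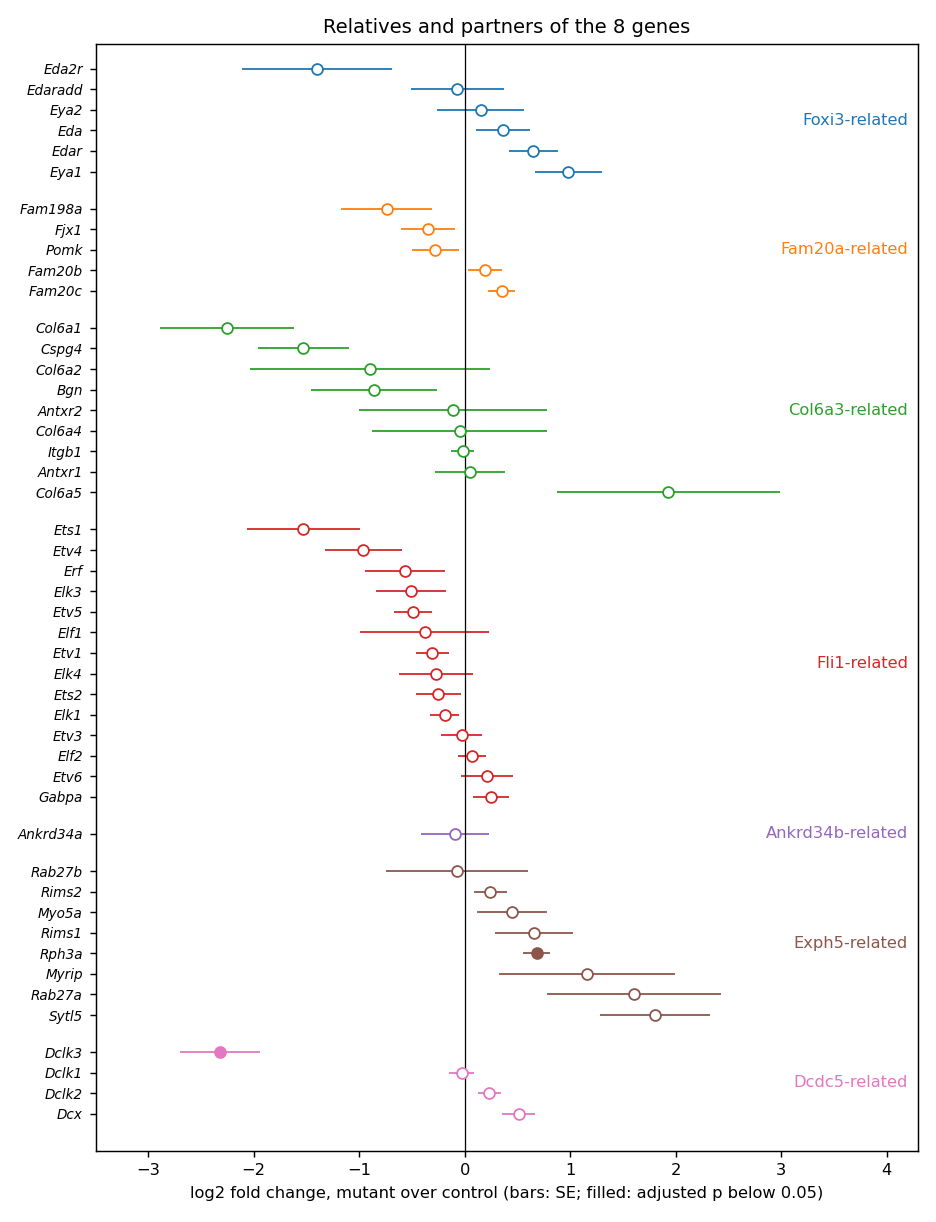
Log2 fold change of mutant over control for the 47 tested relatives and partners, with standard errors, by the gene to which they relate. Filled points have an adjusted p below 0.05 in edgeR's quasi-likelihood test, which are Rph3a at 0.68 and Dclk3 at -2.32.

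The 8 genes lie on 7 chromosomes, and only Fli1 and Exph5 share one. The nearest tested protein-coding gene on each side gave 16 neighbours, of which 1 was higher, 0 were lower and 15 did not pass, with a median log2 fold change of -0.02. Over all genes tested, 2.68% were higher and 1.74% lower, so a count of 1 among so few genes does not set the neighbours apart. The one that passed was Mpped2, a metallophosphoesterase gene 287 kb beyond Dcdc5, which rose to 1351 ± 72.9 CPM (SD, n = 5) in the mutants, against 544 ± 41.3 CPM (SD, n = 6) in the controls (log2 fold change 1.33, SE 0.0839, edgeR adjusted p = 2.62e-07). All mutants, at 1241 to 1428 CPM, lay above all controls, at 489 to 613 CPM. Dnajc24, on the other side of Dcdc5, is among the 15. Without mutant 5 the count of neighbours past the threshold was 2, and DESeq2 called 4 of the 16, against 7.09% of all genes to which it gave an adjusted p.

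Marker genes of the tissues in which these genes are best known were summed by list in each library. Those of endothelium, blood, microglia and ameloblasts were at low levels in both groups. The 10 endothelial markers summed to 1.84 to 9.03 CPM in the mutants and 2.9 to 9.03 CPM in the controls, with Tek and Erg at 0 in every library. The 8 blood and megakaryocyte markers summed to 3.78 to 6.66 CPM in the mutants and 2.37 to 4.68 CPM in the controls, with Gata1, Pf4 and Hba-a2 at 0 in every library. Fli1 stood at 10.2 to 23.2 CPM in the mutants, and the part of such cells in its counts was not tested.

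Markers of microglia, 7 genes, summed to 2.14 to 8.93 CPM in the mutants and 0.501 to 9.72 CPM in the controls. The 10 fibroblast, meningeal and mural markers summed to 20.1 to 23.9 CPM in the mutants and 12.4 to 44.6 CPM in the controls, of which Pdgfrb made up most. Of the other genes on that list, Dcn had 84 counts over the mutants and 0 over the controls, Col3a1 29 and 3, Lum 4 and 0, and Col1a1 17 and 20. All 4 were below the count filter of edgeR, and their part in the Col6a3 counts was not tested. The 6 ameloblast markers reached at most 0.235 CPM in a mutant and 0.415 CPM in a control, with Ambn, Klk4, Mmp20 and Amtn at 0 in every library. Only 2 endothelial, 2 blood, 1 microglial, 3 fibroblast and 0 ameloblast markers were tested. None of them passed in edgeR's test, against 4.42% of all genes tested, so with so few genes this says little about the lists.

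The 9 epithelial and placode markers did lie higher in the mutants, at 19.7 to 44.9 CPM, against 9.54 to 23.9 CPM in the controls, though the ranges overlap and neither tested member, Eya1 nor Epcam, passed. Eya1 made up most of this sum, Epcam averaged 2.7 CPM in the mutants and 0.386 CPM in the controls, and among the members below the count filter of edgeR Trp63 had 28 counts over the mutants and 0 over the controls, Krt8 14 and 1, Cdh1 5 and 0, Krt14 3 and 0, Tfap2a 1 and 3, and Krt18 0 and 4. Krt5 had 0 counts in all libraries. The part of such cells in the Foxi3 counts was not tested.

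**Figure D5:**
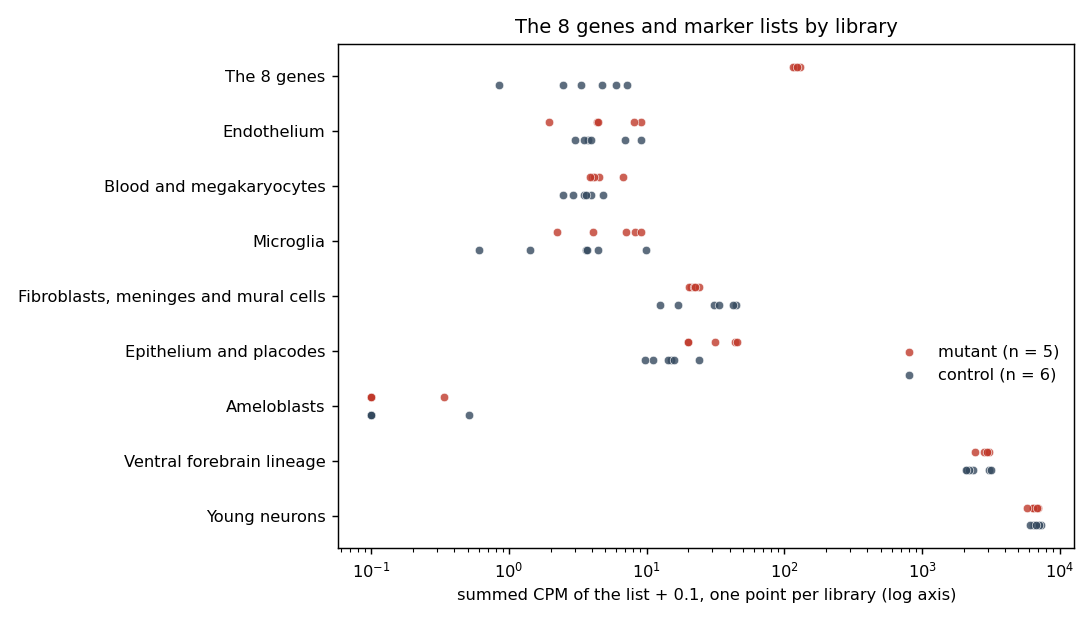
Summed CPM of the 8 genes and of each marker list, 1 point per library, on a log axis after adding 0.1 CPM, with mutants above controls in each row. The 8 genes sum to 116 to 130 CPM in the mutants and 0.747 to 7.05 CPM in the controls, while the endothelial, blood, microglial and fibroblast lists overlap between the groups.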

How the data were processed

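RNA was measured in 11 libraries, 5 mutant and 6 control. The table deposited by the authors holds unnormalised read counts for 39179 Ensembl genes. The submitters' processing notes name TopHat2 2.0.13, featureCounts 1.4.6, mm10 and GRCm38. The strand setting, the annotation release and the treatment of multiply aligned reads are not stated in these notes or the labels, so overlapping genes cannot be told apart by strand. Groups came from the titles. Replicates differed beyond sampling noise (lowest chi-square per degree of freedom 13.7), so each counted as 1 sample. The labels name no separate animals, and the p-values therefore reflect only how these libraries vary.

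Symbols, coordinates and exon lengths came from GENCODE M21 on GRCm38, and names matched 37607 identifiers. CPM are scaled by library totals. Tests used edgeR 4.0.16 in R 4.3.3 (filterByExpr, TMM, robust quasi-likelihood fit) with Benjamini-Hochberg adjustment over 14104 genes, of which 623 passed 0.05. Standard errors were derived from the F statistic. The fit was checked on simulated counts. Alternatives were other scalings and filters, DESeq2 1.42.0, leaving out each library, a replicate block, female libraries only and a Y-linked covariate. Totals of 6833981 to 13073505 counts set the precision.

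The 8 genes and all lists were chosen with earlier results of these data known. Besides the 8 genes and Zeb2, genes were named as up to 3 past the threshold in each list of relatives or otherwise its 2 highest, as neighbours that passed, as the 5 nearest profiles and as the edges of the level limits. Other genes are given by counts, marker level, position or an alternative's call, and were named after their values were seen. A few genes of the lists are not reported here and were left out of their sums and counts.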

Additional observations from a re-analysis of the deposited data

Results flagged for a closer look

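Within a group, 1 library stood apart from the rest (Dixon's criterion at 95%) in 8 of 67 groups of values examined. Chance gives about 1 in 20 for independent groups of normally distributed values. Low counts and sums that share genes do not meet that, so the 8 cannot be set against it. Among the 8 genes this was Dcdc5 in control 4, at 1.14 CPM, against 0 to 0.301 CPM in the other controls. Among the genes named beside them, Cspg4 stood at 43.1 CPM in mutant 5, against 17.3 to 24.3 CPM in the other mutants. Ankrd34a stood at 25.9 CPM in control 2 (5.91 to 10.6 CPM in the others), Eya1 at 23.9 CPM in control 3 (9.46 to 14.8 CPM) and Nos1 at 33.4 CPM in control 1 (13.4 to 20.1 CPM). The blood markers summed to 6.66 CPM in mutant 2, against 3.78 to 4.4 CPM in the other mutants. The ameloblast markers summed to 0.235 CPM in mutant 1 and to 0.415 CPM in control 4, with 0 in all other libraries, where the criterion is met whatever the size of the value.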

How the results depend on the processing

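All 152 refitted log2 fold changes of the 8 genes were positive, which the choice of the genes and their full separation made all but certain. The lowest was 3.44, for Exph5 among female libraries. The median fold change of the 8 genes, 4.75, ranged from 4.49 to 5.14 without 1 library and was 4.02 among female libraries. All 8 stayed separated under each scaling and omission tried, but leaving out libraries cannot undo a full separation. The scaling factors, at 0.949 to 1.0338, were also too alike to close the narrowest gap, 2.02-fold in Ankrd34b. The 66 genes of the level rule became 61 to 74 without 1 library, 21 at a control limit of 1 CPM, 139 at a mutant limit of 3 CPM and 104 with female controls only. The 623 genes changed became 418 to 656 without 1 library, 218 among female libraries, 186 with the Y-linked covariate and 1200 with DESeq2. The 2 related genes changed became 2 to 4 without 1 library and 8 with DESeq2, and the 1 neighbour 1 to 2 and 4. The cause of these shifts was not tested. Signs turned for genes that did not pass: Ankrd34a was at 0.48 with the covariate, 0.42 among female libraries, 0.06 with the replicate block and -0.22 to 0.31 without 1 library, Pomk at 0.3 and 0.33 with the covariate and among female libraries, and Itgb1 at -0.1 to 0.04 without 1 library. Same-numbered mutants and controls did not deviate together (correlations of -0.137 to 0.021). Even the best matching control of each mutant reached only 0.05 to 0.157, so these values give no sign of pairing by number but cannot exclude it. With a replicate block 421 genes passed, with 2 related genes and 1 neighbour among them.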
